A study of Mus musculus with 3 samples.

Results

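The genes described here are those of cholesterol synthesis, together with the regulators of sterol regulatory element-binding protein 2 (SREBP2) and a few carriers of sterol within the cell. The 27 genes were chosen by name, and an array sequence was assigned to a gene where its accession maps to the gene's symbol in RefSeq. Of the 27 genes, 26 had such a sequence (probe) on the array, among 22911 genes that could be named in all. *Acat2*, which joins acetyl-CoA units at the entry to the pathway, had none and is not described further. The 26 genes were read by 44 probes, and each gene is given by its brightest probe. On each of the 3 arrays, all 26 genes were well above background by the call of the scanner software, read by the brightest probe.

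Total RNA was measured in 3 mouse cell lines of female BALB/c origin. Colon26 is the parental line, a colon adenocarcinoma, and LuM1 and NM11 are sublines of it with high and low metastatic potential. All lines were kept in the same medium with serum, grown for 3 days and left untreated by any drug or knockdown, and 0.1 µg of RNA from each was labelled with a single dye. There was 1 array per cell line, so line, culture and array cannot be told apart, no difference could be checked against replicates, and none was tested.

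Cholesterol is built from acetyl-CoA through the mevalonate pathway, which yields isoprenoid units, then through squalene, and then through a series of steps that reshape the sterol ring. Isoprenoids also leave the pathway to be attached to proteins or to form dolichol. When sterol in the endoplasmic reticulum is low, SCAP escorts SREBP2 to the Golgi, where it is cut, and the released fragment enters the nucleus and drives most genes of the pathway. When sterol is plentiful, the INSIG proteins hold the SCAP and SREBP2 complex back.

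SREBP2 binds the sterol regulatory element, often beside sites of the CCAAT-binding factor NF-Y. The promoters of 4 genes at least 2-fold higher in both sublines are therefore shown, chosen among the genes that had a window in the table of promoters, with that of *Scap* as one that lacks the CCAAT letters. Genes that were lower in a subline than in Colon26 cells, such as *Ebp*, *Sc5d* and *Insig2*, also had CCAAT in a window. Each line holds the 250 bases before the annotated start in RefSeq (GRCm38.p6), 5′ to 3′ on the strand of the gene. Capitals mark the letters TCACNCCAC (the sterol regulatory element) and CCAAT (NF-Y), the latter appearing as ATTGG where it lies on the opposite strand. *Hmgcs1* lies on the plus strand at chr13:119690101-119690350, *Hsd17b7* on the minus strand at chr1:169969206-169969455, *Idi1* on the plus strand at chr13:8885356-8885605, *Cyp51* on the minus strand at chr5:4104698-4104947 and *Scap* on the plus strand at chr9:110333106-110333355.
Hmgcs1: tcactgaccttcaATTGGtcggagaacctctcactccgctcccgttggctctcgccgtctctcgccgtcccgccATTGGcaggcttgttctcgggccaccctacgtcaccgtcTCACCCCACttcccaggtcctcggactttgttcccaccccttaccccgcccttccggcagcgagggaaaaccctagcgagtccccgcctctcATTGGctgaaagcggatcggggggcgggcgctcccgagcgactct
Hsd17b7: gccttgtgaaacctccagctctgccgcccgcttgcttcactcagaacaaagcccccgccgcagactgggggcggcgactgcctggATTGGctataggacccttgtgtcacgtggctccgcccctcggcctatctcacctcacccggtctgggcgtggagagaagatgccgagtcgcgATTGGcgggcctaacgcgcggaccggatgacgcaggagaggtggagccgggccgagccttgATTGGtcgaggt
Idi1: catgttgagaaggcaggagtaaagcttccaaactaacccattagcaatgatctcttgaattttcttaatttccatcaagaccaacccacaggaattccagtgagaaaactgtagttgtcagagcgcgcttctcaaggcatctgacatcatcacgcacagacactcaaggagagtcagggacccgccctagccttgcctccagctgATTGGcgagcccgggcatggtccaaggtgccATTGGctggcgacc
Cyp51: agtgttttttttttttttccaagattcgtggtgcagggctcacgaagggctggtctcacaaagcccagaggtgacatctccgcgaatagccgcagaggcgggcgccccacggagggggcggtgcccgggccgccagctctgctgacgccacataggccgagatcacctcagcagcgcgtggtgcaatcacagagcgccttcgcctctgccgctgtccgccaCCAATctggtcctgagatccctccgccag
Scap: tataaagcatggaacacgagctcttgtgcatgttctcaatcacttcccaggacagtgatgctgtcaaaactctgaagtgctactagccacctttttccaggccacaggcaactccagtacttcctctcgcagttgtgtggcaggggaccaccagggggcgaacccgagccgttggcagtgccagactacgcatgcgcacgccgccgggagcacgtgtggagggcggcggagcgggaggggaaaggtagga

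The table of promoters held 28 windows for 22 of the 27 genes, *Acat2* among them, each running from 250 bases before the start to 50 bases after it. Both strands were searched, and none of the 3 motifs contains another. The CCAAT letters were in 20 of these 28 windows (71.4%), against 37.4% of all 32851 mouse windows of that length. Counted by gene, 20 of 22 genes had CCAAT in at least 1 window, against 41.1% of all 27025 genes. The exceptions among the 22 were *Acat2* and *Scap*. The letters GGGCGG, the core of an Sp1 box, were in 23 of the 28 windows (82.1%), against 35.7% of all windows. The letters TCACNCCAC were found in 1 window, that of *Hmgcs1*, where they began 137 bases before the start, and 1.24% of all windows held them. A match is a description of the letters, and no match says only that these exact letters are not in the window.

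The signals below are the processed brightness of a probe with the 75th percentile of every array brought to 585.1, the geometric mean of the percentiles as deposited (581 in Colon26, 625 in LuM1, 552 in NM11). The error printed with a signal is that of the scanner software. Its median over the probes of an array was 10.1% of the signal, which gives an error of 0.20 or 0.21 for the log2 ratio of any of the genes between any pair of lines. This error covers the reading of a spot and not the spread between cultures.

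**Figure D1:**
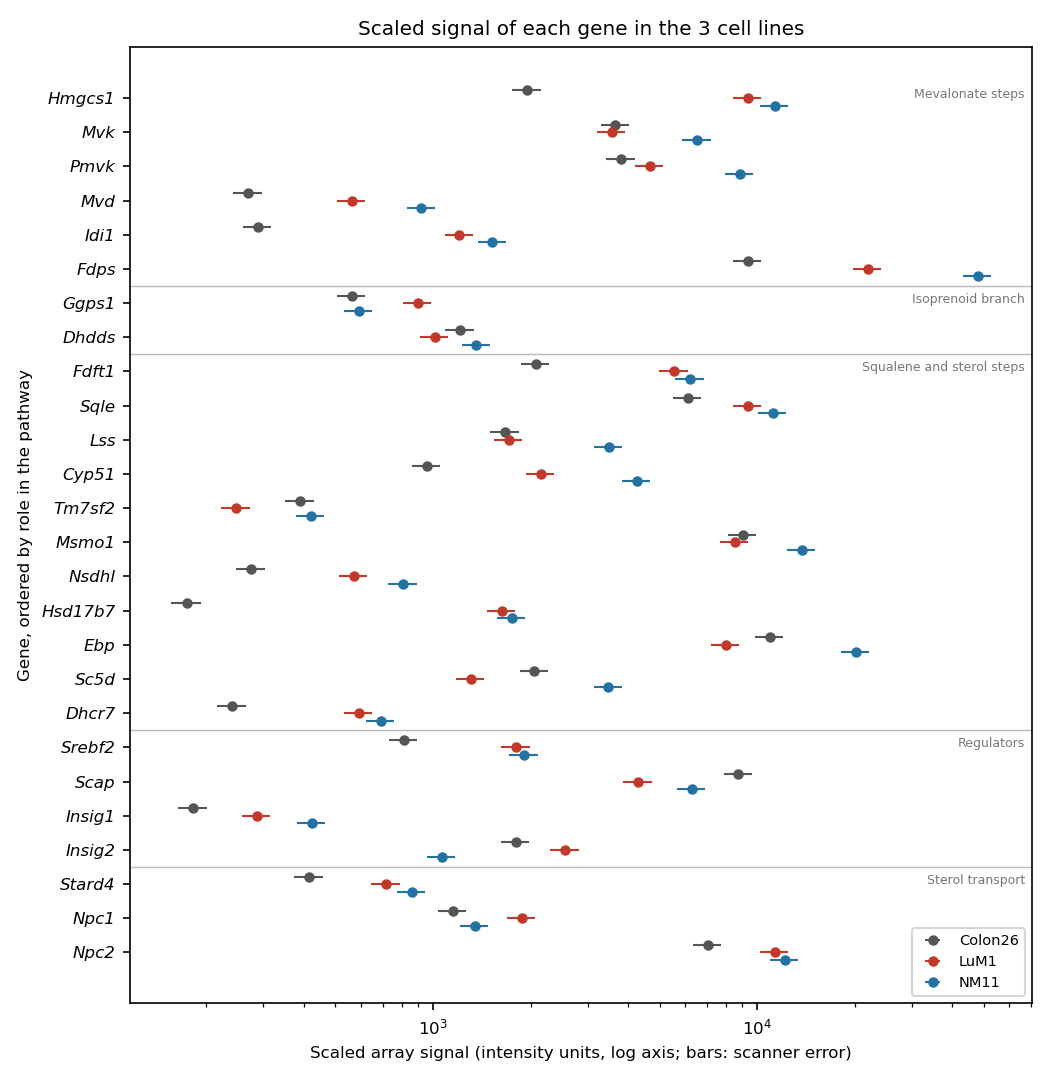
Scaled signal of each of the 26 genes (horizontal log axis, intensity units) in Colon26, LuM1 and NM11 cells, ordered by role, with 1 array per line and bars for the scanner error. The Colon26 point lies apart to the left for *Hmgcs1*, *Idi1* and *Hsd17b7*, and it lies to the right of both sublines only for *Scap*.

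The first steps make mevalonate and turn it into isoprenoid units. *Hmgcs1* encodes the cytosolic synthase that makes HMG-CoA. Its signal was 1953 ± 195 in Colon26 cells, 9369 ± 937 in LuM1 cells and 11346 ± 1135 in NM11 cells. LuM1 cells were thus 4.80-fold and NM11 cells 5.81-fold above the parental line. *Idi1* encodes the isomerase that interconverts the isoprenoid units. Its signal was 288 ± 29.4 in Colon26 cells, 1207 ± 121 in LuM1 cells and 1525 ± 153 in NM11 cells, which is 4.19-fold and 5.29-fold higher in the sublines. For both genes the sublines were close to each other, and their order (log2 LuM1 over NM11 of -0.28 for *Hmgcs1* and -0.34 for *Idi1*) turned under scaling to *Hprt*, to the spike-in controls and with the authors' processed values, and for *Hmgcs1* also under quantile normalization.

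*Fdps* encodes farnesyl diphosphate synthase, which makes the last intermediate shared by sterols and other isoprenoids. Its signal was 9352 ± 935 in Colon26 cells, 21947 ± 2195 in LuM1 cells and 47837 ± 4784 in NM11 cells, so that all 3 lines were apart by more than the scanner error. The ratio to Colon26 was 2.35-fold in LuM1 cells and 5.12-fold in NM11 cells. *Mvd*, the decarboxylase that forms the isoprenoid unit, followed the same order, with 269 ± 27.5 in Colon26 cells, 561 ± 56.3 in LuM1 cells and 921 ± 92.2 in NM11 cells.

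The kinases between them stood apart from this pattern in LuM1 cells. *Mvk*, mevalonate kinase, had a signal of 3655 ± 366 in Colon26 cells, 3564 ± 356 in LuM1 cells and 6531 ± 653 in NM11 cells. *Pmvk*, phosphomevalonate kinase, had 3811 ± 381, 4662 ± 466 and 8834 ± 883 in the same order. The log2 ratio of LuM1 over Colon26 was -0.04 for *Mvk*, within the scanner error and of changing sign across ways of scaling, and 0.29 for *Pmvk*. For NM11 cells the same ratio was 0.84 for *Mvk* and 1.21 for *Pmvk*. The second probe of *Mvk* gave 0.33 in LuM1 cells, beyond its scanner error of 0.21, and 1.32 in NM11 cells. Of the 6 mevalonate genes, each read by its brightest probe, 4 reached 2-fold above Colon26 in LuM1 cells and 5 in NM11 cells. Their medians were 1.15 and 2.06 on the log2 scale. Over all measured genes, 9.72% and 6.27% were at least 2-fold higher.

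Isoprenoids leave the pathway through *Ggps1*, which makes geranylgeranyl diphosphate, and *Dhdds*, which encodes a subunit of the enzyme that makes the dolichol chain. The signal of *Ggps1* was 562 ± 56.6 in Colon26 cells, 898 ± 90.0 in LuM1 cells and 591 ± 59.3 in NM11 cells. The signal of *Dhdds* was 1214 ± 121, 1015 ± 102 and 1362 ± 136. Neither gene reached 2-fold in any comparison as scaled here. Under other scalings the log2 ratio of *Ggps1* in LuM1 cells rose to at most 1.12 over Colon26 cells and 1.19 over NM11 cells. By the brightest probes NM11 and Colon26 cells were within the scanner error of each other for both genes (log2 ratios of 0.07 and 0.17). The sign of these ratios turned under scaling to *Hprt* and to the spike-in controls. The other probes of *Ggps1* gave -0.24 to -0.01 for NM11 over Colon26, the lowest beyond its scanner error of 0.21. The second probe of *Dhdds* gave -0.22, also beyond its error, and -0.89 for LuM1 over Colon26.

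The next enzymes commit the pathway to sterol. *Fdft1* encodes squalene synthase, and its signal was 2078 ± 208 in Colon26 cells, 5544 ± 554 in LuM1 cells and 6212 ± 621 in NM11 cells, which is 2.67-fold and 2.99-fold higher in the sublines. *Sqle*, squalene epoxidase, had 6101 ± 610, 9356 ± 936 and 11194 ± 1119, with ratios to Colon26 of 1.53-fold and 1.83-fold. *Lss*, which closes the ring to lanosterol, had 1671 ± 167, 1714 ± 171 and 3484 ± 348. By this probe LuM1 and Colon26 cells were within the scanner error of each other in *Lss*, while NM11 cells were 2.08-fold above Colon26 cells. The second probe of *Lss* gave log2 ratios of -0.06 and 0.54, and the dimmest of its 3 probes gave 0.91 and 2.13.

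The largest ratios of the whole set were those of *Hsd17b7*, which encodes the ketoreductase of the demethylation of the ring. Its signal was 174 ± 18.4 in Colon26 cells, 1629 ± 163 in LuM1 cells and 1753 ± 175 in NM11 cells. LuM1 cells were 9.35-fold and NM11 cells 10.1-fold above the parental line, and the sublines were within the scanner error of each other. A second probe of the gene was not well above background in Colon26 cells (29.3 ± 6.70) and read 344 ± 34.7 in LuM1 cells and 348 ± 35.1 in NM11 cells. That probe gives 11.7-fold and 11.9-fold, with a scanner error of 0.36 for each log2 ratio. A ratio to such a dim probe is entered as a bound. The bound sets the mean signal of the subline against the higher of 2 values. These are the dim probe's own signal and the lowest signal well above background on the Colon26 array. Here the probe's own signal was the higher, so the scanner error also allows lower ratios.

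Other enzymes of the demethylation were higher in both sublines. *Cyp51*, the lanosterol demethylase, had 958 ± 96.0 in Colon26 cells, 2155 ± 216 in LuM1 cells and 4256 ± 426 in NM11 cells, with ratios to Colon26 of 2.25-fold and 4.44-fold. *Nsdhl*, the sterol dehydrogenase that acts before *Hsd17b7*, had 275 ± 28.2, 569 ± 57.1 and 809.8 ± 81.1. *Msmo1*, the methyl oxidase of the same set of steps, was different, with 9029 ± 903, 8524 ± 852 and 13710.1 ± 1371. Its LuM1 and Colon26 signals were within the scanner error, and its NM11 signal was 1.52-fold above that of Colon26.

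*Dhcr7* encodes the reductase that finishes cholesterol in one branch of the pathway, and its signal was 241 ± 24.7 in Colon26 cells, 590.2 ± 59.2 in LuM1 cells and 690.3 ± 69.1 in NM11 cells. Both sublines lay above the parental line, 2.45-fold and 2.87-fold. The isomerase *Ebp* and the desaturase *Sc5d*, which act shortly before it, lay in opposite directions in the sublines. *Ebp* had 10929 ± 1093 in Colon26 cells, 7993 ± 799 in LuM1 cells and 20130.2 ± 2013 in NM11 cells. *Sc5d* had 2056 ± 206, 1306 ± 131 and 3477 ± 348. For both genes LuM1 cells were the lowest and NM11 cells the highest, with LuM1 over Colon26 at -0.45 and -0.65 and NM11 over Colon26 at 0.88 and 0.76 on the log2 scale. *Tm7sf2*, a sterol reductase of the ring, had 389.9 ± 39.4, 248 ± 25.1 and 420.4 ± 42.2, so that only LuM1 cells stood apart, on the low side.

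Of the 11 squalene and sterol genes, 5 reached 2-fold above Colon26 in LuM1 cells and none was 2-fold lower. In NM11 cells 6 were at least 2-fold higher and none was 2-fold lower. The shares over all measured genes were 9.72% higher and 9.72% lower in LuM1 cells, and 6.27% and 5.47% in NM11 cells. The median log2 ratios were 0.62 and 1.06. All 11 ratios of NM11 over Colon26 were above 0, where 48.0% of all measured genes were. That of *Tm7sf2* fell below 0 under scaling to *Hprt* and to the spike-in controls.

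**Figure D2:**
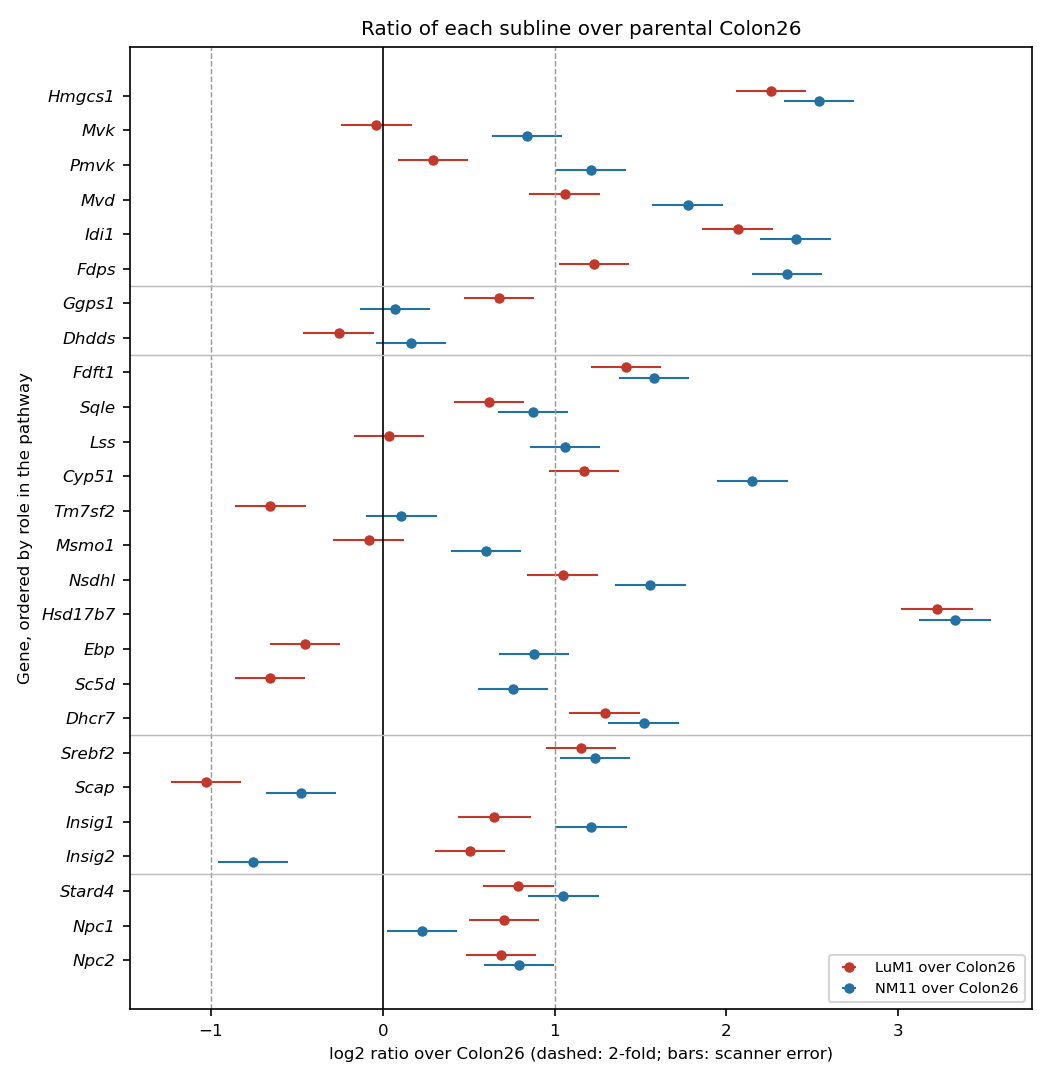
Log2 ratio of each gene in LuM1 and NM11 cells over Colon26 cells, ordered by role, with bars for the scanner error and dashed lines at 2-fold. *Hsd17b7* has the highest points (3.22 and 3.33), *Ebp* and *Sc5d* have LuM1 below 0 and NM11 above 0, and *Insig2* has the reverse. Both ratios of a gene share the Colon26 array.

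The regulators of the pathway were not alike. *Srebf2*, which encodes SREBP2 itself, had a signal of 812 ± 81.4 in Colon26 cells, 1805 ± 181 in LuM1 cells and 1913 ± 191 in NM11 cells, 2.22-fold and 2.36-fold higher in the sublines. *Insig1*, an inhibitor that SREBP2 itself induces, had 182 ± 19.2, 286 ± 29.0 and 422 ± 42.5, and its ratios to Colon26 were 1.57-fold and 2.32-fold. For both genes Colon26 cells had the lowest of the 3 signals.

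*Scap*, the escort of SREBP2, was lower in both sublines. Its signal was 8753 ± 875 in Colon26 cells, 4293 ± 429 in LuM1 cells and 6298 ± 630 in NM11 cells, which is 2.04-fold and 1.39-fold lower. No other gene of the 26 was 2-fold lower in LuM1 cells than in the parental line, and *Scap* no longer was under 6 other ways of scaling, where its ratio stayed below 0. *Insig2*, the other inhibitor, had 1801 ± 180 in Colon26 cells, 2556 ± 256 in LuM1 cells and 1067 ± 107 in NM11 cells. It was thus highest in LuM1 cells and lowest in NM11 cells, 2.40-fold apart, and no other gene of the 26 was 2-fold higher in LuM1 cells than in its sister subline.

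The sterol carriers were mostly within 2-fold. *Stard4*, a soluble carrier of cholesterol, had 416 ± 41.9 in Colon26 cells, 718 ± 71.9 in LuM1 cells and 861 ± 86.2 in NM11 cells. *Npc2*, which hands cholesterol over inside lysosomes, had 7028 ± 703, 11343 ± 1134 and 12163 ± 1216. *Npc1*, the membrane protein that receives it, had 1152 ± 115, 1876 ± 188 and 1349 ± 135. All 3 carriers were higher in LuM1 than in Colon26 cells, by 1.61-fold to 1.73-fold. In NM11 cells *Stard4* was 2.07-fold above Colon26 cells by its brightest probe and 3.66-fold by its other probe. *Npc2* was 1.73-fold above Colon26 cells, and the log2 ratio of *Npc1* was 0.23, which turned below 0 under scaling to *Hprt* and to the spike-in controls.

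For LuM1 over Colon26, the 26 genes held 10 that were at least 2-fold higher and 1 that was at least 2-fold lower. Among the 12394 named genes measured on both arrays, 9.72% were at least 2-fold higher and 9.72% at least 2-fold lower. The 10 higher genes were *Hsd17b7*, *Hmgcs1*, *Idi1*, *Fdft1*, *Dhcr7*, *Fdps*, *Cyp51*, *Srebf2*, *Mvd* and *Nsdhl*. The count was 10 or more under every scaling of the arrays. Under normexp background correction it was 8, with log2 ratios of 0.87 for *Mvd* and 0.84 for *Nsdhl*. The other genes named stayed at or above 2-fold there too. The median log2 ratio was 0.68 for the 26 genes and -0.13 for all measured genes. Above 0 were 19 of the 26 genes and below 0 were 7, where 41.7% of all measured genes were above 0. The sign of *Mvk*, *Dhdds*, *Lss* and *Msmo1* turned under at least 1 of the 12 alternatives.

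For NM11 over Colon26, 14 of the 26 were at least 2-fold higher and none was at least 2-fold lower. The shares over the 12469 genes measured on both arrays were 6.27% higher and 5.47% lower. Of the 14 genes, 9 stayed at or above 2-fold under every scaling, namely *Hmgcs1*, *Mvd*, *Idi1*, *Fdps*, *Fdft1*, *Cyp51*, *Nsdhl*, *Hsd17b7* and *Dhcr7*. The other 5 were *Pmvk*, *Lss*, *Srebf2*, *Insig1* and *Stard4*. The median log2 ratio was 1.06 for the 26 genes and -0.02 for all measured genes. Of the 26 genes only *Scap* and *Insig2* lay below 0, where 48.0% of all measured genes lay above 0. Under scaling to *Hprt* or to the spike-in controls *Ggps1*, *Dhdds*, *Tm7sf2* and *Npc1* also fell below 0. Without scaling *Ggps1* did, and with the mean over probes or the second brightest probe *Ggps1* and *Dhdds* did.

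Both of these comparisons share the Colon26 array, so a signal that was low or high on that array enters both. The direct ratio of LuM1 over NM11 does not use it. In that comparison 1 gene, *Insig2*, was at least 2-fold higher in LuM1 cells and 4 were at least 2-fold lower. Over all 12848 measured genes, 8.41% were at least 2-fold higher and 7.22% at least 2-fold lower. The 4 genes were *Sc5d* (2.66-fold lower), *Ebp* (2.52-fold), *Fdps* (2.18-fold) and *Lss* (2.03-fold), and none of the 4 stayed at 2-fold under every scaling. By its second probe *Lss* was 1.52-fold lower.

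The median log2 ratio of LuM1 over NM11 was -0.47 for the 26 genes and -0.11 for all measured genes. It was above 0 (0.12) under scaling to *Hprt*, where the median of all genes moved by 0.59. All 17 enzymes from mevalonate to cholesterol had a lower signal in LuM1 than in NM11 cells. The log2 ratios of *Fdft1* (-0.16) and *Hsd17b7* (-0.11) were within the scanner error. Under all 12 alternatives 10 of the 17 kept this order, namely *Mvk*, *Pmvk*, *Mvd*, *Fdps*, *Lss*, *Cyp51*, *Tm7sf2*, *Msmo1*, *Ebp* and *Sc5d*. The alternatives that change only the filter on dim probes could not alter it. Those that use other probes could not alter it for genes without a second probe. The sign of the other 7 turned under scaling to *Hprt* and, for most of them, other scalings. Over all measured genes, 43.0% of the ratios of LuM1 over NM11 were above 0, and 80.6% were under scaling to *Hprt*.

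**Figure D3:**
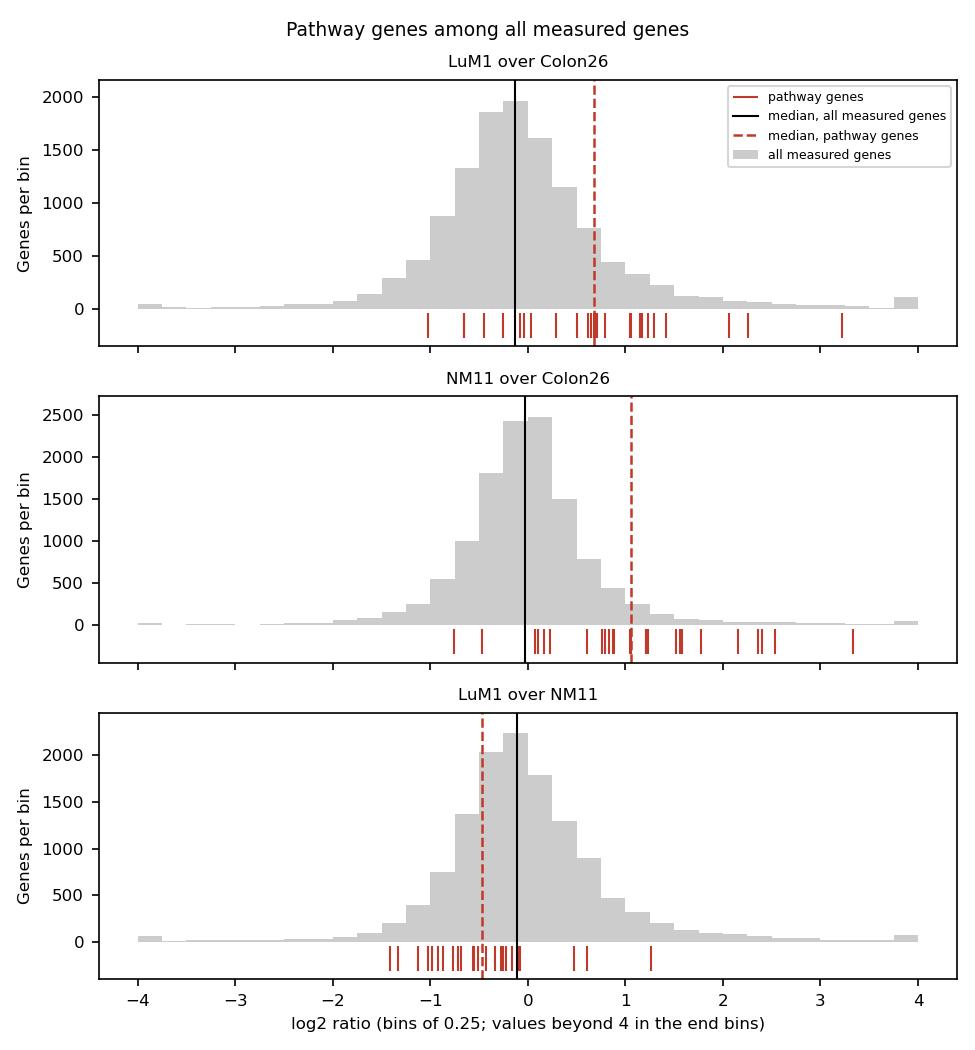
Histogram of the log2 ratios of all named genes measured on both arrays (grey, genes per bin of 0.25) for each comparison, with a red tick for each of the 26 genes, a solid line at the median of all genes and a dashed line at the median of the 26. The dashed line lies at 0.68, 1.06 and -0.47, and the solid line at -0.13, -0.02 and -0.11, with the dashed line of LuM1 over NM11 at 0.12 when scaled to *Hprt*.

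At a threshold of 1.5-fold, 16 of the 26 genes were higher and 3 lower in LuM1 over Colon26, where 17.1% and 23.6% of all measured genes were. In NM11 over Colon26 the counts were 20 higher and 1 lower, where 13.6% and 14.6% of all measured genes were. In LuM1 over NM11 they were 2 higher and 10 lower, where 16.2% and 19.7% of all measured genes were.

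The way arrays are scaled moves all genes of a comparison together. Scaling to *Hprt* moved the median of all measured genes by -0.49 in NM11 over Colon26 and by 0.59 in LuM1 over NM11 on the log2 scale, the spike-in controls by -0.30 and 0.34, and the authors' processed values by 0.45 in LuM1 over Colon26 and 0.41 in LuM1 over NM11. The distance between the median of the 26 genes and that of all measured genes was 0.81 in LuM1 over Colon26, 1.08 in NM11 over Colon26 and -0.36 in LuM1 over NM11, and multiplying each array by any constant leaves it as it is. With the authors' values 16 genes reached 2-fold higher and none 2-fold lower in LuM1 over Colon26. With scaling to *Hprt* 9 were higher and 1 was lower in NM11 over Colon26, and 3 were higher and none was lower in LuM1 over NM11. The shares of all measured genes past 2-fold are given only for the reported scaling and do not apply to these counts. With the authors' values 69.6% of all measured genes were above 0 in LuM1 over Colon26. With scaling to *Hprt* 16.7% were in NM11 over Colon26 and 80.6% in LuM1 over NM11.

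**Figure D4:**
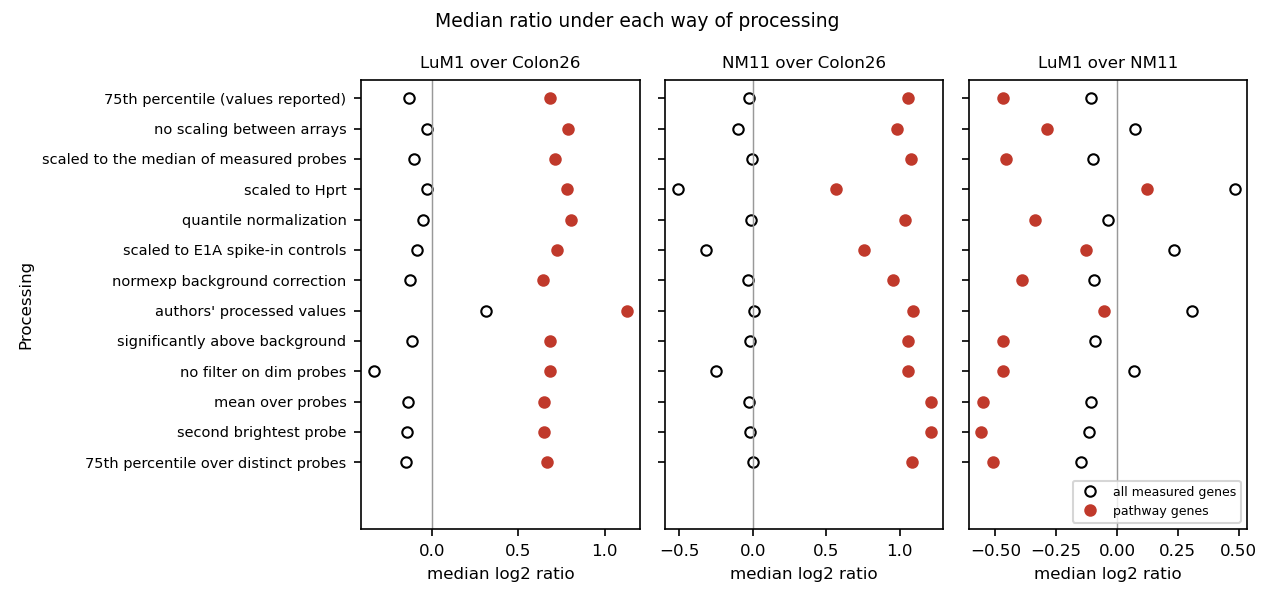
Median log2 ratio of the 26 genes (filled) and of all measured genes (open) for each comparison under each way of processing, with no test. The filled points lie right of the open ones in both comparisons with Colon26 and left of them in LuM1 over NM11, and the filled point of the latter is above 0 only when scaled to *Hprt*.

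Different probes of one gene gave a second reading for 13 of the 26 genes. Their highest and lowest log2 ratios lay a median of 0.28 apart in LuM1 over Colon26, 0.24 in NM11 over Colon26 and 0.11 in LuM1 over NM11. Probes were more than 2-fold apart in a ratio for *Ggps1* and *Lss*. The 5 probes of *Ggps1* gave LuM1 over Colon26 between -0.19 and 0.92. The 3 probes of *Lss* gave LuM1 over Colon26 between -0.06 and 0.91 and NM11 over Colon26 between 0.54 and 2.13. Both probes of *Ebp* and all 3 of *Insig2* kept opposite directions in the sublines, with LuM1 and NM11 over Colon26 at -0.29 and 1.04 for the second probe of *Ebp*, and at 0.80 and -0.43 for the dimmest of *Insig2*.

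**Figure D5:**
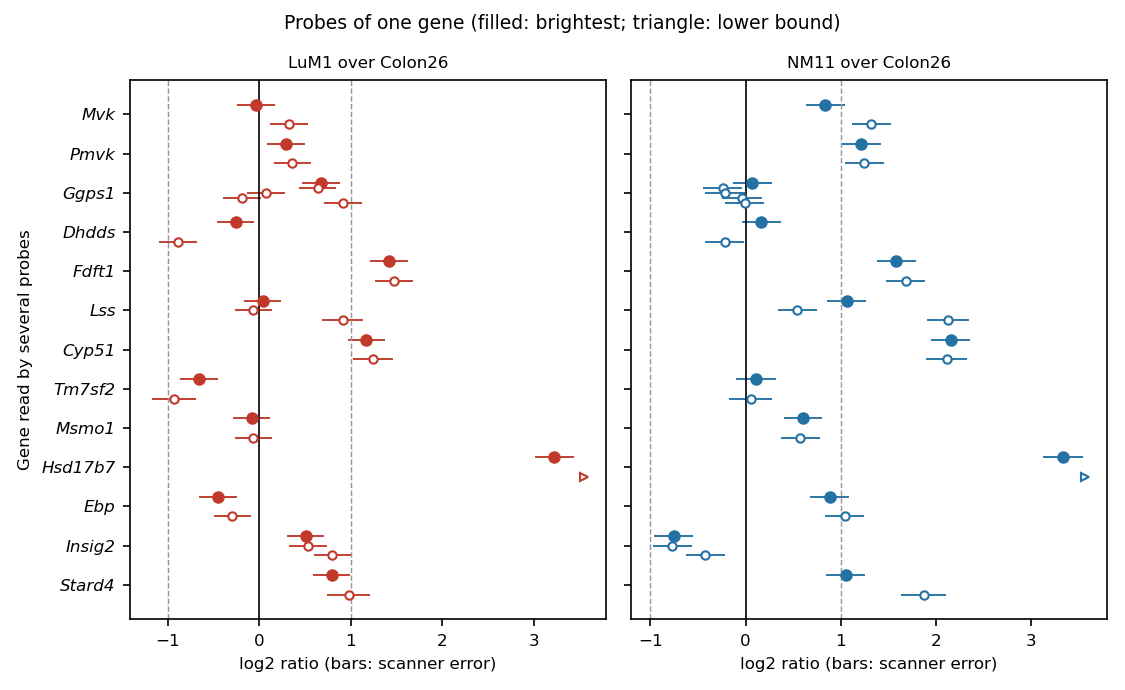
Log2 ratio over Colon26 of every probe of the 13 genes read by several, for LuM1 and NM11 cells, with bars for the scanner error. Filled points are the brightest probes and open points the others. A triangle, labelled as a lower bound and drawn without a bar, is a probe not well above background in Colon26 cells. The probes of *Ggps1* range from -0.19 to 0.92 in LuM1 cells and those of *Lss* from 0.54 to 2.13 in NM11 cells.

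A further 35 genes of the same pathway and its neighbours were looked up in the same way, and all had a probe. In LuM1 over Colon26 cells 2 were at least 2-fold higher and 8 at least 2-fold lower, in NM11 over Colon26 cells 2 and none, and in LuM1 over NM11 cells 2 and 7. The shares over all measured genes were 9.72% and 9.72%, 6.27% and 5.47%, and 8.41% and 7.22%. Their median log2 ratios were -0.41, -0.12 and -0.20. *Lipa*, the lysosomal lipase that frees cholesterol, was highest in LuM1 cells, with 355 ± 35.9, 2762 ± 276 and 923 ± 92.4. *Srebf1*, which encodes the sister factor of fatty acid synthesis, was within the scanner error in all comparisons (log2 ratios of 0.10, 0.19 and -0.09).

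Genes lower in LuM1 cells included *Tmem97*, a sterol-binding protein, with 5124 ± 512 in Colon26 cells, 1669.9 ± 167 in LuM1 cells and 7880.1 ± 788 in NM11 cells. *Erlin1*, a membrane protein of the endoplasmic reticulum, had 6244 ± 624, 1987 ± 199 and 6642 ± 664. *Stard5*, a sterol carrier, had 729.8 ± 73.2, 259 ± 26.3 and 982 ± 98.3. In these 3 genes LuM1 cells stood below both other lines. The rest of those lower in LuM1 cells against the parental line were *Gramd1c* (-1.52), *Dpagt1* (-1.37), *Pdss1* (-1.12) and *Fntb* (-1.12), as log2 ratios, and *Pdss2* (2.01-fold lower). *Pgrmc1* was higher in NM11 than in Colon26 cells (1.17). *Icmt* was higher in LuM1 than in Colon26 cells by its brightest probe (1.36), but by 0.41 and so under 2-fold by its other probe. In LuM1 over NM11 cells *Ebpl* was higher (1.08), and *Soat2* (-1.23), *Pgrmc1* (-1.22) and *Gramd1c* (-1.05) were lower, as was *Pdss1*, which lay at the 2-fold limit.

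The lines were checked against markers of cell types. Of 10 epithelial markers, 3 were well above background in Colon26 cells, 4 in LuM1 cells and 3 in NM11 cells, with summed signals of 1167, 453 and 396, where dim markers count at face value as in the sums below. *Cdh1*, *Krt18*, *Krt19*, *Vil1*, *Muc2* and *Lgr5* were not well above background on any array. The others did not move together. *Krt20* had 651, 54.5 and 157 and *Cdx2* had 443, 232 and 167. *Krt8* was highest in LuM1 cells, with 28.9, 108 and 37.1, and *Epcam* was well above background only in LuM1 cells. All 6 mesenchymal markers were well above background on every array, with summed signals of 168457, 88461 and 194579. They did not move together, since in LuM1 over Colon26 cells *Col1a2* was 1207-fold lower while *Pdgfra* was 18.2-fold and *Col3a1* 3.98-fold higher. Of 6 myeloid markers 3, 4 and 3 were well above background, *Ptprc* and *Adgre1* on no array, and the sums were 5902, 12884 and 5250, with *Cd68* at 172, 5251 and 299. Of 4 endothelial markers only *Pecam1* was, with sums of 68.5, 66.0 and 93.9. The part of these markers in the ratios above was not tested, and in such bulk samples fewer cells of a type and less RNA per cell cannot be told apart.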

How the data were processed

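Total RNA of Colon26, LuM1 and NM11 cells was measured on 1 single-colour Agilent array each. Per spot, the authors deposited the intensity that Feature Extraction 11.5.1.1 had computed, background-subtracted and detrended within each array and not scaled between arrays, with flags of 0 or 1 and an error per spot. They also deposited a table of processed intensity values, each column of which is the scanner intensity multiplied by a constant (0.654, 0.829 and 0.706 for Colon26, LuM1 and NM11).

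Control spots and outlier spots (74 to 137 per array) were left out, repeated probes were averaged, and arrays were brought to a common 75th percentile over all non-control spots. This followed a first run over distinct probes, which was replaced after its results were seen and is kept as an alternative. Probes (58.3% of 56605) were named through RefSeq accessions (GRCm38.p6). Probe coordinates are not given, since the array's design used an earlier assembly. The scanner software called 49.9% to 53.8% of probes well above background and none saturated. A probe not well above background entered ratios only as a bound, and entered the sums over cell type markers at face value. No gene of the set was printed as a repeated probe. The spots of 300 repeated probes had a median SD of 0.035 to 0.040 (log2). Precision is limited by the number of arrays.

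The genes, lists and alternatives were chosen with earlier results of these data known. The genes named were all 27 of the set, and of a list of 35 other pathway genes those at least 2-fold apart in a comparison, with *Srebf1* named beside that rule. Some genes of the list as first drawn up are not reported here, and its counts and medians leave them out. The alternatives were to leave the arrays unscaled, to scale them by the median of measured probes, by *Hprt* or by 8 E1A spike-in controls, quantile normalization, normexp correction (offset 50, run on the median brightness of spot and background), the authors' processed values, spots significantly above background, dim probes at face value, the mean over probes, the second brightest probe and a threshold of 1.5-fold. Calling was tested on simulated data that held scanner noise and no spread between cultures, scaled by the percentile over distinct probes. Scripts ran in Python 3.11.15 (numpy 2.4.6, pandas 2.3.3, matplotlib 3.10.9), with normexp from limma 3.58.1 in R 4.3.3.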

Additional observations from a re-analysis of the deposited data

Results flagged for a closer look

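For 3 genes the sublines lay on opposite sides of Colon26 cells by more than the scanner error, a criterion set after the signals had been seen. *Ebp* was at -0.45 in LuM1 and 0.88 in NM11 cells, *Sc5d* at -0.65 and 0.76, and *Insig2* at 0.51 and -0.76, as log2 ratios over Colon26. With 1 array per line the difference between sublines was not tested, and both ratios of a gene share the Colon26 array. The direction of each of these ratios was kept under all 12 alternatives. However, *Ebp* in LuM1 over Colon26 came within the scanner error under quantile normalization and with the authors' values. The alternatives that change only the filter on dim probes could not alter these ratios. Those that use other probes could not alter the ratios of *Sc5d*, which had no second probe.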

How the results depend on the processing

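No paired analysis was possible because there was 1 array per cell line, and for the same reason no replicate could be left out. The alternative with the percentile over distinct probes was added after seeing the data. In LuM1 over Colon26, 16 genes were at least 2-fold higher with the authors' values and 16 passed a threshold of 1.5-fold (17.1% of all genes). The count of lower genes was 0 without scaling, with the median, *Hprt*, quantile normalization, the spike-in controls or the authors' values, and 3 at 1.5-fold (23.6%). The median log2 ratio was 1.13 with the authors' values. In NM11 over Colon26, 9 genes were higher with *Hprt* and 9 with the spike-in controls, 1 was lower with either and 1 at 1.5-fold, and the median was 0.57 with *Hprt* and 0.76 with the spike-in controls. In LuM1 over NM11, 3 genes were higher with *Hprt*, 2 with the authors' values and 2 at 1.5-fold. The lower genes were 2 without scaling, 0 with *Hprt*, 2 with quantile normalization, 1 with the spike-in controls, 0 with the authors' values and 10 at 1.5-fold. The median was 0.12, and so reversed, with *Hprt*, -0.13 with the spike-in controls and -0.053 with the authors' values. Apart from quantile normalization, each of these scalings multiplies an array by a constant and so moves all of its genes together. The shares of all measured genes past 2-fold under these scalings are not given, and those under the reported scaling do not apply to these counts. No scaling could be checked against replicate arrays, and which one fits these RNAs best was not tested. Of the 312 single-gene values of each comparison, 269 stayed within the scanner error of the reported ratio in LuM1 over Colon26. The counts were 246 in NM11 over Colon26 and 218 in LuM1 over NM11. Some of these values could not differ from the reported ratio. All 26 genes were well above background, so the alternatives that change only the filter on dim probes left their ratios as they were. For the 13 genes without a second probe, so did the mean over probes and the second brightest probe. These counts therefore include agreement that was fixed in advance.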
